A study of Mus musculus with 12 samples.

Results

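The transcription factor NRF2 and a set of glutathione and antioxidant genes, not all of them known NRF2 targets, were followed in Myc-CaP cells. This mouse prostate cancer line, established from FVB/NJ mice, was read 48 h after low-dose oxaliplatin (Oxali), interferon γ (IFNγ) or both. The set consists of 34 genes named by symbol: Nfe2l2 (the gene for NRF2) and 3 regulators around it, and 30 genes of glutathione synthesis and use, thioredoxin and peroxiredoxin, NADPH supply, heme and iron handling, and superoxide and peroxide removal. They were looked up by symbol among the 55216 genes of the count table, and 32 of the 34 had enough reads to be tested. RNA-seq libraries came in 6 groups of 2: untreated cells (Ctrl), IFNγ at 200 pg (IFN200) or 2000 pg (IFN2000), Oxali at 2 μM, and Oxali with either amount of IFNγ (Combo200 and Combo2000). The labels give no volume for the IFNγ amounts. Myc-CaP is a single line that overexpresses Myc. All groups share the same line, time point and poly(A) selection, and no genetic change or drug other than these 2 agents is named. Nothing in the labels says that the replicates were separate cultures, so p-values measure the spread between these libraries, which may be technical.

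NRF2 is a transcription factor that in resting cells is bound by KEAP1 and marked for degradation; when oxidants or electrophiles modify KEAP1, NRF2 accumulates and binds antioxidant response elements near its target genes. Most of that control acts on the protein, so the level of Nfe2l2 mRNA is not a measure of NRF2 activity. Glutathione, a tripeptide made from glutamate, cysteine and glycine, can be conjugated to platinum drugs, and the conjugates can be pumped out of the cell. Thioredoxin, peroxiredoxins and glutathione peroxidases reduce peroxides and disulfides, and all of them draw their electrons from NADPH.

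The titles and a second label, the agent, name different treatments for the 6 libraries of single treatments. Titles were used, and the labels of the controls and combinations are not in conflict. The mean log2 ratio to Ctrl of 10 p53 targets lay between 0.319 and 0.367 in the 6 libraries titled with Oxali and at 0.021 or below in the other 6. Library totals ran from 18749975 to 25931516 counts. The 2 libraries of a group differed most in Oxali, with a chi-square per degree of freedom of 8.39 between them. It was 5.06 in IFN2000, 3.26 in Combo2000, 2.43 in IFN200, 1.735 in Ctrl and 1.65 in Combo200. Of the markers of the line given here, Foxa1, Hoxb13, Krt8 and Myc were read in every library, while Epcam and Pbsn were at 0 in all 12. Levels are given as CPM, read counts scaled to a common library size. IFN2000 replicate 2 stood apart by a summed level of 14.85 CPM over 10 T cell markers, against 1.85 or less elsewhere (2 of the 10 were at 0 there, and Cd8a was at 0 in every library), and IFN200 replicate 1 by 10.9 CPM over 10 heart muscle markers, against 6.54 or less. Results that rest on these libraries are given with and without them. In IFN2000 the log2 ratio to Ctrl also varied with transcript length across genes (Spearman's rho -0.285 and -0.146 in the 2 libraries, against 0.060 and 0.078 in Oxali), and in IFN200 it did so in the opposite direction (0.167 in replicate 1 and 0.084 in replicate 2).

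To see whether the sequence bound by NRF2 is present where these genes start, promoter windows were read from RefSeq (build GRCm38.p6), each from 250 bases before to 50 bases after an annotated start. A window was found for 28 of the 34 members. The core of the antioxidant response element, TGACNNNGC, was searched on both strands; it can overlap the AP-1 site TGACTCA. It stood in a window of 11 of the 28 members (39.3%) and of 14% of all 27025 genes with a window. Among members called with Oxali (below the adjusted p of 0.05 used throughout), 3 of the 7 with a window that rose and 6 of the 17 that fell held the core, so it was found on both sides. Windows are shown for the largest rises (Me1 and Gclm) and falls (Prdx1 and G6pdx) that held the core, and for Osgin1, the largest change without it. Capitals mark the core, and a match is a description of letters, not of binding.
Me1, chr9:86695865-86696164, minus strand: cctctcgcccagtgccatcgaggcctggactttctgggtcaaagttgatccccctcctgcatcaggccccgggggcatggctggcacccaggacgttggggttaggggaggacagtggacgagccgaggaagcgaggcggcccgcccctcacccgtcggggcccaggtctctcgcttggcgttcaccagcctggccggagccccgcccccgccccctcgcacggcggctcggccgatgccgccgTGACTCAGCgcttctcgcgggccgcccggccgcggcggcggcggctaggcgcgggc
Gclm, chr3:122245307-122245606, plus strand: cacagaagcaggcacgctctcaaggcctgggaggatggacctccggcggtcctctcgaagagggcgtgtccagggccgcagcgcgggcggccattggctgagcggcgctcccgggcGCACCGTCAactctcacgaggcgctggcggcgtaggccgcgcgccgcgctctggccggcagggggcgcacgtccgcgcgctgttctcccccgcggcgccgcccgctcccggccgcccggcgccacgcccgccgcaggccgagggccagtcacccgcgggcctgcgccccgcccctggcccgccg
Prdx1, chr4:116685349-116685648, plus strand: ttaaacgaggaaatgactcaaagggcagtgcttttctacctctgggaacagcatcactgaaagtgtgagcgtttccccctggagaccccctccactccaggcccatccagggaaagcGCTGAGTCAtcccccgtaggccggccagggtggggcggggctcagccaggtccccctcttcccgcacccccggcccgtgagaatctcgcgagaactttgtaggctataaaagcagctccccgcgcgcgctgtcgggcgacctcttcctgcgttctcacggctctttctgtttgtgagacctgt
G6pdx, chrX:74428831-74429130, minus strand: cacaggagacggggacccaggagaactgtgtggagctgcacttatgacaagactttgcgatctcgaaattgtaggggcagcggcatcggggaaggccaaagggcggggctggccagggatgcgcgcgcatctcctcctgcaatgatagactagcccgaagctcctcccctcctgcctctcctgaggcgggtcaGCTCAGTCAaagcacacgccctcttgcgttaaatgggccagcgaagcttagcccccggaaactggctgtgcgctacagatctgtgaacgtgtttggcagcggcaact
Osgin1, chr8:119436897-119437196, plus strand: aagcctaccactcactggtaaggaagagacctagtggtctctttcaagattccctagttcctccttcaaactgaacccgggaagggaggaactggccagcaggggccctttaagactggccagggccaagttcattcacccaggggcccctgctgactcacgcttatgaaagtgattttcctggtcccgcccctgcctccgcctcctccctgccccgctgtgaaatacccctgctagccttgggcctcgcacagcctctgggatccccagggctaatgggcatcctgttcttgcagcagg
The core of Me1 began 6 bases before the start, that of G6pdx 57 bases before it, and those of Prdx1 and Gclm 133 and 134 bases before it.

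Oxali shifted most of the set, and more members fell than rose. Of the 32 tested, 27 were called, 8 higher and 19 lower. The background was large, with 67.6% of all 13177 genes called (34.8% higher, 32.8% lower), so the share of members called is read against that and not by itself. After a trend with transcript length and GC content was removed, the split was 5 higher and 21 lower. The median log2 fold change was -0.28 over the tested members and 0.02 over all genes tested, and the median size of the change was 0.49 and 0.39. Members that fell belonged mainly to the thioredoxin and peroxiredoxin group (4 of 5), NADPH supply (4 of 5) and superoxide and peroxide removal (3 of 3). The 8 that rose were Sqstm1, Osgin1, Gclc, Gclm, Gpx1, Gpx4, Me1 and Abcc4. In bulk RNA, fewer cells of one kind and less RNA per cell cannot be told apart. Low summed reads of markers listed for other cell types also moved with Oxali, although many markers of each list were at 0. A list of 5 fibroblast markers summed to between 20.9 and 25.6 CPM in the 6 libraries with Oxali and 9.95 and 17.4 in the 6 without, nearly all of it Pdgfra (the collagens and Dcn were at 0.592 CPM or less in every library), and 10 heart muscle markers summed to 3.83 to 6.54 CPM with Oxali and 1.06 to 1.42 without, apart from IFN200 replicate 1. Macrophage markers (5 genes) summed to 1.53 to 2.18 CPM with Oxali and 0.530 to 1.27 without, and T cell markers to 1.24 to 1.85 with and 0.133 to 0.564 without, apart from IFN2000 replicate 2. These sums rest on few genes. In the 2 Oxali libraries 6 and 5 of the 10 heart muscle markers and 7 and 7 of the 10 T cell markers were at 0. Tnnt2 ran from 0.834 to 5.75 CPM over the 12 libraries, and no other heart muscle marker passed 2.73. Of the macrophage markers, Adgre1 and Itgam were at 0 in every library. The sums therefore do not show that these cell types were present, and the part of these reads in the result was not tested.

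**Figure D1:**
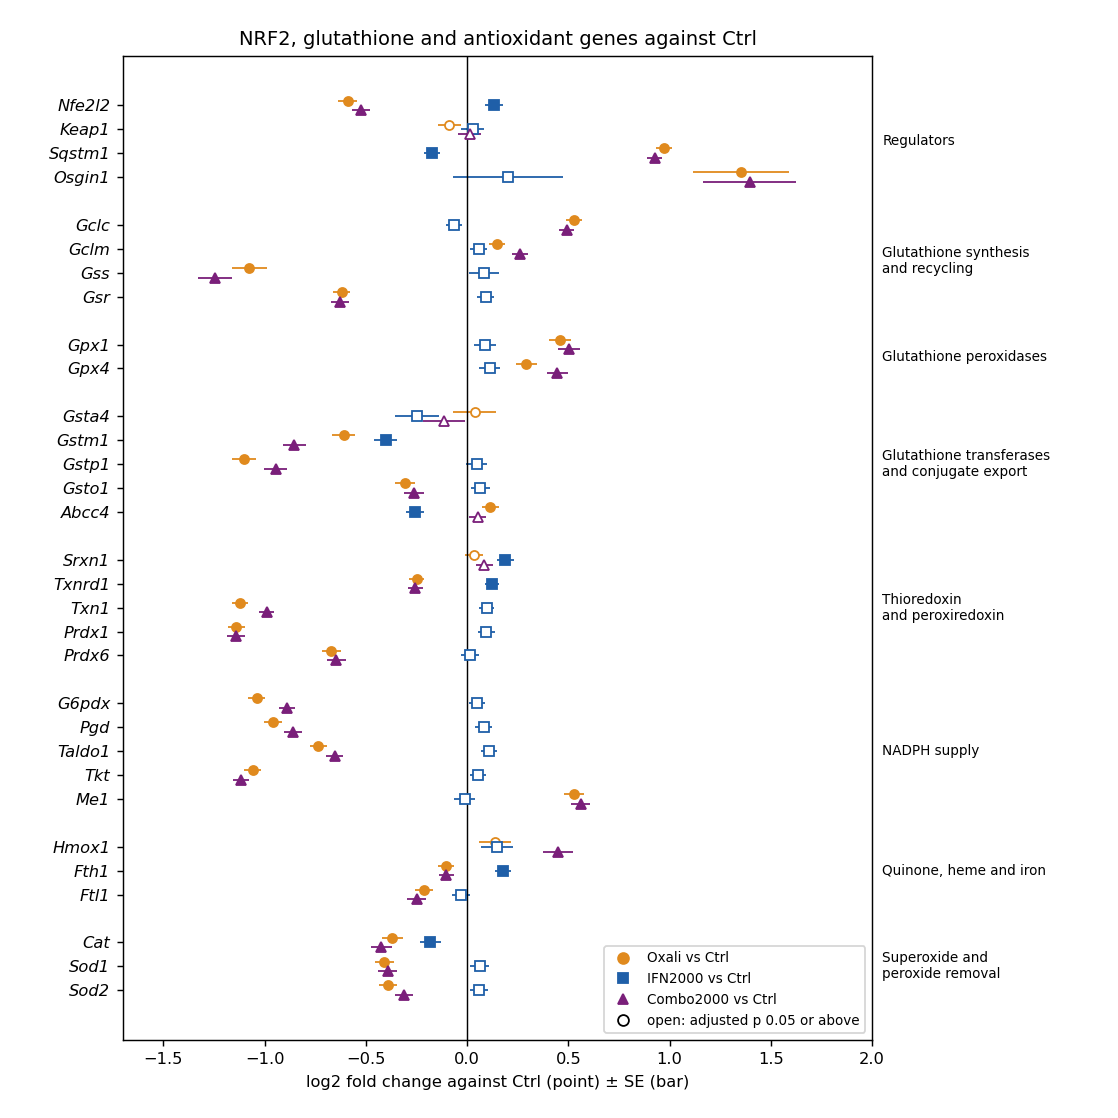
Log2 fold change against Ctrl for the tested members other than Gstt2, ordered by role, with points for the estimate and bars for the SE (edgeR). Orange circles are Oxali, blue squares IFN2000 and purple triangles Combo2000; open symbols were not called. The circles and triangles lie close together for nearly every gene, with Tkt, Prdx1, Txn1, G6pdx and Gss near -1 and Sqstm1 near 1, while the squares lie within 0.41 of 0.

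Of the regulators, Nfe2l2 fell with Oxali and 2 genes that signal to or from NRF2 rose. Over all genes, 34.8% were called higher and 32.8% lower, so these counts by themselves do not set the regulators apart. Nfe2l2 (chromosome 2, 75675513 to 75704641, GRCm38) had 81.3 and 84.9 CPM in Ctrl, 54.5 and 56.0 in Oxali, 88.3 and 83.1 in IFN200, 56.6 and 56.9 in Combo200, 92.0 and 90.2 in IFN2000 and 58.2 and 57.2 in Combo2000. All 6 libraries with Oxali were lower than all 6 without it, and the log2 fold change in Oxali against Ctrl was -0.59 (SE 0.05, edgeR adjusted p 6.85e-10). Keap1, the adaptor that hands NRF2 to the ubiquitin ligase, had 75.1 and 79.8 CPM in Ctrl, 76.1 and 69.6 in Oxali, 70.8 and 77.7 in IFN200, 74.2 and 78.8 in Combo200, 76.6 and 81.4 in IFN2000 and 78.0 and 78.3 in Combo2000. Its groups overlapped, and its change with Oxali of -0.09, edgeR adjusted p 0.171, was not called, although with the length and GC trend removed it was -0.38 and called (adjusted p 3.13e-07). Sqstm1 (chromosome 11, 50199366 to 50210827), which encodes p62, an autophagy receptor that can bind KEAP1 and is itself an NRF2 target, had 291 and 275 CPM in Ctrl, 570.3 and 540.0 in Oxali, 267 and 269.5 in IFN200, 558 and 551 in Combo200, 254 and 248 in IFN2000 and 544 and 532 in Combo2000. The lowest library with Oxali was at 532 CPM and the highest without at 291, and the change in Oxali was 0.97 (SE 0.04, edgeR adjusted p 3.82e-14), or 1.96-fold. Osgin1, an oxidative stress-induced growth inhibitor, is low in this line, with 1.28 and 1.27 CPM in Ctrl, 3.04 and 3.48 in Oxali, 0.911 and 1.10 in IFN200, 3.23 and 2.82 in Combo200, 1.58 and 1.34 in IFN2000 and 2.85 and 3.92 in Combo2000. It nevertheless showed the largest rise of the set, 1.35 (SE 0.24, edgeR adjusted p 4.22e-05) and held 21 to 37 counts in the libraries without Oxali and 66 to 91 in those with it.

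The steps of glutathione supply moved in different directions with Oxali. Slc7a11, the cystine carrier that brings in the cysteine needed for glutathione (listed as a pathway gene and not a member), had 159 and 147 CPM in Ctrl, 42.0 and 42.9 in Oxali, 157 and 154 in IFN200, 41.0 and 41.1 in Combo200, 146 and 168 in IFN2000 and 39.1 and 39.1 in Combo2000. It fell by 1.85 on the log2 scale (SE 0.06, edgeR adjusted p 1.69e-15), with no overlap between libraries with and without Oxali. Gclc (chromosome 9, 77754535 to 77794485), the catalytic subunit of glutamate-cysteine ligase and the first step of glutathione synthesis, had 177 and 175 CPM in Ctrl, 252 and 257 in Oxali, 183 and 178 in IFN200, 259 and 251 in Combo200, 172 and 165 in IFN2000 and 244 and 251 in Combo2000. It therefore rose where the carrier fell, by 0.53 (SE 0.04, edgeR adjusted p 3.68e-10). Gclm (chromosome 3, 122245557 to 122270732), the modifier subunit of the same enzyme, had 128 and 129 CPM in Ctrl, 144 and 141 in Oxali, 134 and 128 in IFN200, 154 and 157 in Combo200, 131 and 136 in IFN2000 and 151 and 157 in Combo2000. Its rise was small, 0.15 (SE 0.04, edgeR adjusted p 0.00354), and was 0.04 and not called with the length and GC trend removed (adjusted p 0.318). Gss (chromosome 2, 155563181 to 155592810), glutathione synthetase, the second step, had 18.6 and 18.8 CPM in Ctrl, 9.02 and 8.73 in Oxali, 18.1 and 19.8 in IFN200, 7.98 and 7.92 in Combo200, 19.6 and 20.1 in IFN2000 and 7.74 and 8.06 in Combo2000. The libraries with Oxali reached at most 9.02 CPM and those without were at 18.1 or more, a change of -1.08 (SE 0.09, edgeR adjusted p 9.79e-10). Gsr, the reductase that returns oxidised glutathione to its reduced form, had 129 and 126 CPM in Ctrl and 81.7 and 83.8 in Oxali, a change of -0.62 (SE 0.04).

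**Figure D2:**
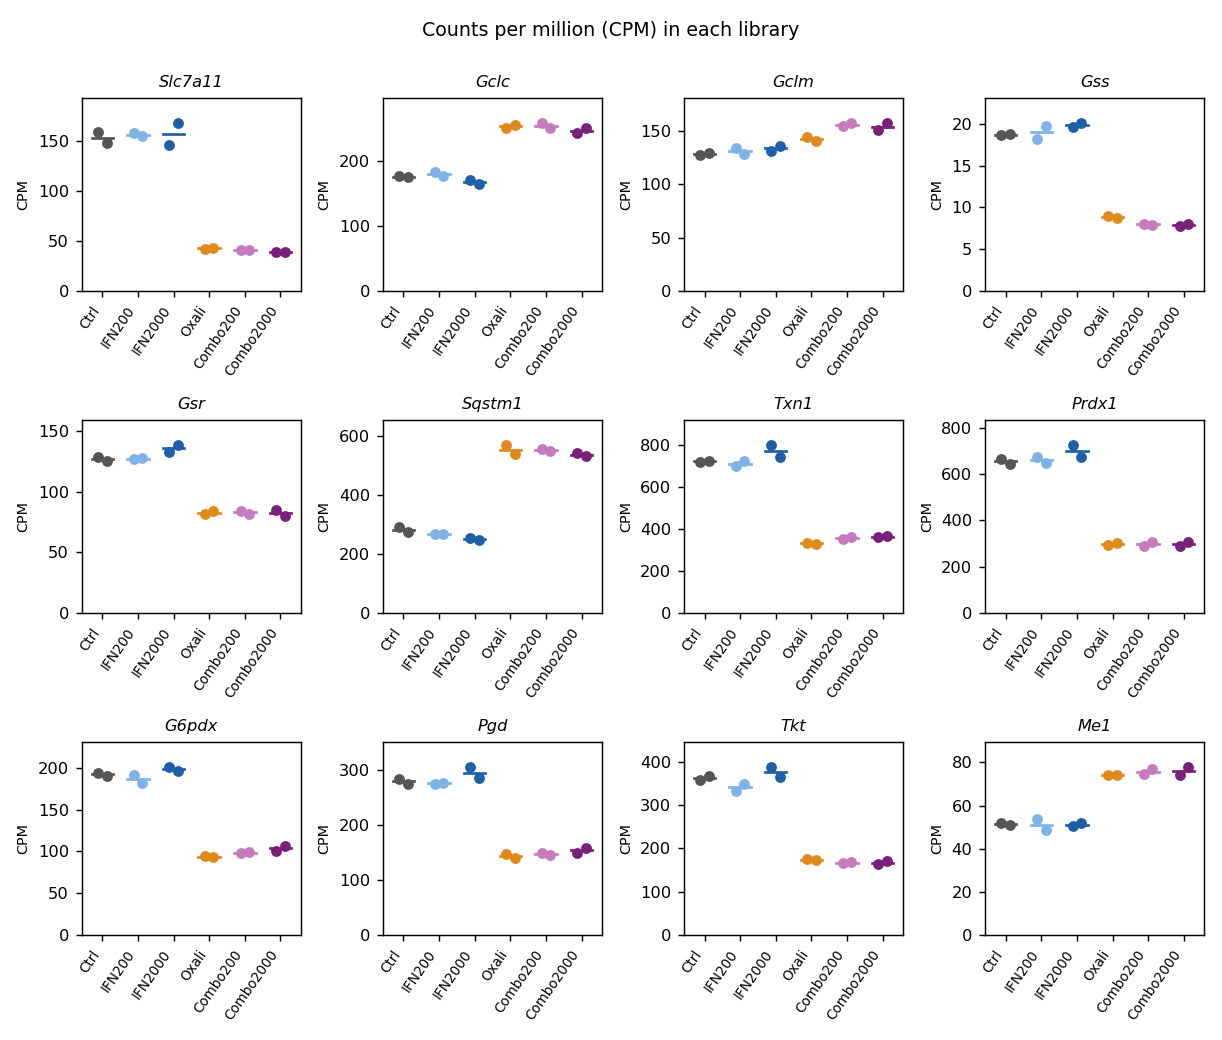
CPM (vertical axis, from 0) in each of the 12 libraries for 11 members and Slc7a11; points are libraries and short lines the means of the 2 libraries of a group. Slc7a11, Gss, Gsr, Txn1, Prdx1, G6pdx, Pgd and Tkt lie lower and Gclc, Gclm, Sqstm1 and Me1 higher in all 6 libraries with Oxali than in all 6 without.

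Both glutathione peroxidases, which use glutathione to reduce hydrogen peroxide (Gpx1) and lipid hydroperoxides (Gpx4), rose with Oxali, where 34.8% of all genes were called higher. Gpx1 had 127 and 125 CPM in Ctrl and 179.9 and 166 in Oxali, a change of 0.46 (SE 0.05). Gpx4 had 116 and 110.5 CPM in Ctrl and 144 and 133 in Oxali, a change of 0.29 (SE 0.05) that was 0.09 and not called with the length and GC trend removed (adjusted p 0.0685). Neither peroxidase overlapped between the 6 libraries with and the 6 without Oxali, where 31.8% of all genes tested were higher without overlap.

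Of the genes that conjugate glutathione or export conjugates, 3 fell with Oxali, 1 rose and 2 were not called. This is close to the share over all genes, of which 67.6% were called (34.8% higher, 32.8% lower). Gstp1 (chromosome 19, 4035407 to 4037985), the pi-class glutathione transferase linked to platinum resistance, had 61.4 and 58.2 CPM in Ctrl, 27.3 and 28.4 in Oxali, 53.7 and 56.4 in IFN200, 34.7 and 32.0 in Combo200, 63.5 and 60.1 in IFN2000 and 30.1 and 32.1 in Combo2000. It was the most reduced of the transferases, -1.10 (SE 0.06, edgeR adjusted p 2.74e-12). Gstm1, a mu-class transferase, had 48.0 and 46.2 CPM in Ctrl and 32.7 and 28.9 in Oxali, a change of -0.61 (SE 0.06), and Gsto1, of the omega class, changed by -0.30 (SE 0.05). Reads of related genes make these values uncertain: Gstm2 and Gstm5 held 90.6% and 61.6% as many counts as Gstm1, and Gstp2 held 7.33% as many as Gstp1. Abcc4, a pump for glutathione conjugates and other organic anions, had 77.5 and 77.6 CPM in Ctrl and 84.6 and 83.4 in Oxali. Its rise of 0.11 (SE 0.04, edgeR adjusted p 0.0222) was not called by DESeq2 (adjusted p 0.0962), without the filter on low counts (0.122), with the length and GC trend removed (0.839) or without Oxali replicate 1 (0.0986), Ctrl replicate 1 (0.0849) or Ctrl replicate 2 (0.0756). Gsta4, of the alpha class, was at 8.45 and 8.61 CPM in Ctrl and 8.65 and 8.87 in Oxali and was not called. Gstt2 held 2 to 18 counts per library, and Mgst1, a membrane-bound transferase, 4 counts in all 12 libraries.

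The thioredoxin and peroxiredoxin genes included some of the most abundant of the set, and 4 of the 5 fell with Oxali (32.8% of all genes did). Txn1 (chromosome 4, 57943373 to 57956411), thioredoxin, had the highest level per length of all members in Ctrl (687 CPM per kb of exon, against 399 for Fth1 and 215 for Prdx1). Length here joins all annotated exons of a gene, 1051 bases for Txn1, 3469 for Fth1 and 3043 for Prdx1. The order therefore depends on the annotation, and Fth1 had the higher CPM. The libraries of Txn1 held 719 and 725 CPM in Ctrl, 335 and 328 in Oxali, 702 and 722 in IFN200, 351 and 364 in Combo200, 800.3 and 744 in IFN2000 and 361 and 366 in Combo2000. The level in Oxali was 0.459 times that in Ctrl, -1.12 (SE 0.04, edgeR adjusted p 4.36e-15). Prdx1 (chromosome 4, 116685544 to 116700822), a peroxiredoxin that thioredoxin recharges, had 666 and 644 CPM in Ctrl, 294 and 300.5 in Oxali, 672 and 646 in IFN200, 290.2 and 306 in Combo200, 725 and 674 in IFN2000 and 289 and 305 in Combo2000. It changed by -1.14 (SE 0.04, edgeR adjusted p 1.5e-14), the largest fall of the set, and like Txn1 it was lower in all 6 libraries with Oxali than in the 6 without. Prdx6, a peroxiredoxin recharged through glutathione, had 109 and 106 CPM in Ctrl and 69.0 and 66.4 in Oxali, a change of -0.67 (SE 0.05). Txnrd1, the reductase that recharges thioredoxin, had 257 and 264 CPM in Ctrl, 221 and 218 in Oxali, 264 and 265 in IFN200, 227 and 225 in Combo200, 285 and 283 in IFN2000 and 215 and 222 in Combo2000. Its fall was smaller, -0.25 (SE 0.04, edgeR adjusted p 5.52e-06). Srxn1, sulfiredoxin, which rescues overoxidised peroxiredoxins and is a standard NRF2 target, had 68.7 and 73.1 CPM in Ctrl, 71.9 and 73.3 in Oxali, 74.2 and 74.8 in IFN200, 75.9 and 77.6 in Combo200, 81.7 and 80.1 in IFN2000 and 74.4 and 76.1 in Combo2000. These values overlapped between the libraries with and without Oxali, and the change of 0.03, edgeR adjusted p 0.523, was not called. With the length and GC trend removed it turned to -0.14 and was called (adjusted p 0.00584).

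Of the genes that supply NADPH, the 4 of the pentose phosphate pathway fell with Oxali and malic enzyme rose. Of all genes, 32.8% were called lower and 34.8% higher. G6pdx (chromosome X, 74409483 to 74429194), glucose-6-phosphate dehydrogenase, which commits glucose to the pathway, had 194 and 191 CPM in Ctrl, 94.3 and 92.9 in Oxali, 192 and 183 in IFN200, 97.6 and 99.3 in Combo200, 201 and 197 in IFN2000 and 101 and 107 in Combo2000. Pgd (chromosome 4, 149149991 to 149166771), the second NADPH-producing enzyme, had 285 and 275 CPM in Ctrl, 148 and 139.5 in Oxali, 275 and 277 in IFN200, 150.1 and 146 in Combo200, 306 and 286 in IFN2000 and 149.8 and 159 in Combo2000. Neither gene overlapped between the libraries with and without Oxali, where 28.9% of all genes tested were lower without overlap. In Oxali they stood at 0.487 and 0.514 times their Ctrl levels, log2 fold changes of -1.04 (SE 0.04, edgeR adjusted p 4.21e-14) and -0.96 (SE 0.05, edgeR adjusted p 4.08e-13). Tkt (chromosome 14, 30548359 to 30574720), the transketolase of the non-oxidative branch, had 359 and 366 CPM in Ctrl, 176 and 172 in Oxali, 333 and 347 in IFN200, 165 and 168 in Combo200, 388 and 365 in IFN2000 and 165 and 169.6 in Combo2000. It fell to 0.48 times the Ctrl level, -1.06 (SE 0.04, edgeR adjusted p 1.85e-14), and Taldo1, the transaldolase of that branch, had 176 and 174 CPM in Ctrl and 106 and 104 in Oxali with a change of -0.74 (SE 0.04). Me1 (chromosome 9, 86581371 to 86695953), cytosolic malic enzyme, which makes NADPH from malate, had 52.1 and 50.9 CPM in Ctrl, 74.0 and 74.3 in Oxali, 53.6 and 48.8 in IFN200, 74.6 and 76.8 in Combo200, 50.3 and 51.7 in IFN2000 and 74.0 and 77.8 in Combo2000. It rose by 0.53 (SE 0.05, edgeR adjusted p 1.43e-08), and all 6 libraries with Oxali were above all 6 without.

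The classical NRF2 targets of quinone, heme and iron handling moved little or were not read. Nqo1, the quinone reductase often used as the marker of NRF2 activity, held 8 counts over all 12 libraries and at most 3 in one, which is at or under the 3 counts that a count of 0 allows (0.111 to 0.167 CPM, depending on the library). Its response could therefore not be seen at this depth. Hmox1 (chromosome 8, 75093621 to 75100589), heme oxygenase, had 18.6 and 20.6 CPM in Ctrl, 22.6 and 20.6 in Oxali, 18.7 and 16.7 in IFN200, 24.4 and 25.3 in Combo200, 22.3 and 21.2 in IFN2000 and 27.0 and 26.6 in Combo2000. Of the Oxali libraries 1 lay between the 2 Ctrl libraries, and the change of 0.14, edgeR adjusted p 0.131, was not called except with upper-quartile scaling (0.19, adjusted p 0.0399). The ferritin chains Fth1 and Ftl1, which store iron, fell slightly with Oxali, with log2 fold changes of -0.10 (SE 0.04) and -0.21 (SE 0.05). The fall of Fth1 was not called with upper-quartile scaling (adjusted p 0.258), without Oxali replicate 2 (-0.03, adjusted p 0.51) or without Ctrl replicate 2 (adjusted p 0.127).

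All 3 genes that remove superoxide or hydrogen peroxide without glutathione fell with Oxali, where 32.8% of all genes were called lower. Cat, catalase, had 71.1 and 66.7 CPM in Ctrl and 52.1 and 54.5 in Oxali, a change of -0.37 (SE 0.05). Sod1, the cytosolic superoxide dismutase, had 255 and 253 CPM in Ctrl and 188 and 195 in Oxali, a change of -0.41 (SE 0.05). Sod2, the mitochondrial one, had 98.2 and 95.2 CPM in Ctrl and 75.6 and 71.7 in Oxali, a change of -0.39 (SE 0.04). Of the 3, each was lower in all 6 libraries with Oxali than in all 6 without, as were 28.9% of all genes tested.

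Oxali was also given on top of IFNγ, in libraries that share none with Oxali and Ctrl. Against IFN200, Combo200 had 28 of the 32 members called, 11 higher and 17 lower. Of all genes, 69.9% were called there (36.5% higher, 33.5% lower). Against IFN2000, Combo2000 had 29 members called, 9 higher and 20 lower, where 72.3% of all genes were called (38.5% higher, 33.8% lower). With the length and GC trend removed the first split was 8 and 20. Of the 27 members called with Oxali alone, 25 were called in the same direction in Combo200 against IFN200 (8 higher, 17 lower) and all 27 in Combo2000 against IFN2000 (8 higher, 19 lower). The log2 fold changes of the 32 members correlated with those of Oxali against Ctrl with r = 0.967 and 0.976, as a description across genes fitted in one model. The overlap of calls and the correlation are given for members only, without the same measures over all genes. They are therefore not read as particular to the set. The values were close for the genes with large changes. Prdx1 changed by -1.14, -1.15 and -1.24 in the 3 comparisons, and Sqstm1 by 0.97, 1.05 and 1.10. Fth1 and Ftl1 were the exceptions at 200 pg, where they rose by 0.14 (SE 0.04) and 0.15 (SE 0.05). Without IFN200 replicate 1, the library with heart muscle reads, 25 members were called (8 higher, 17 lower), and both ferritin rises were no longer called (adjusted p 0.0566 and 0.0867). With the length and GC trend removed Ftl1 turned to -0.07 (adjusted p 0.128). Fewer of all genes were called too without IFN200 replicate 1, and likewise without IFN2000 replicate 2 in the next comparison. Without IFN2000 replicate 2, the library with T cell reads, Combo2000 against IFN2000 had 29 members called (10 higher, 19 lower).

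Over all 6 libraries with Oxali and all 6 without, 8 tested members were higher in every library with Oxali and 17 lower in every one, and 7 overlapped (Keap1, Gsta4, Gstt2, Srxn1, Hmox1, Fth1 and Ftl1). The share without overlap was 78.1% of the tested members and 60.7% of all genes tested (31.8% higher, 28.9% lower). Summed over the members, the level was 6410 and 6392 CPM in Ctrl and 5278 and 5044 CPM in Oxali. Abundant members weigh most in this sum, so it does not describe the set gene by gene. The means in Ctrl and Oxali were 1384 and 1288 CPM for Fth1, 722 and 332 for Txn1 and 655 and 297 for Prdx1.

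**Figure D3:**
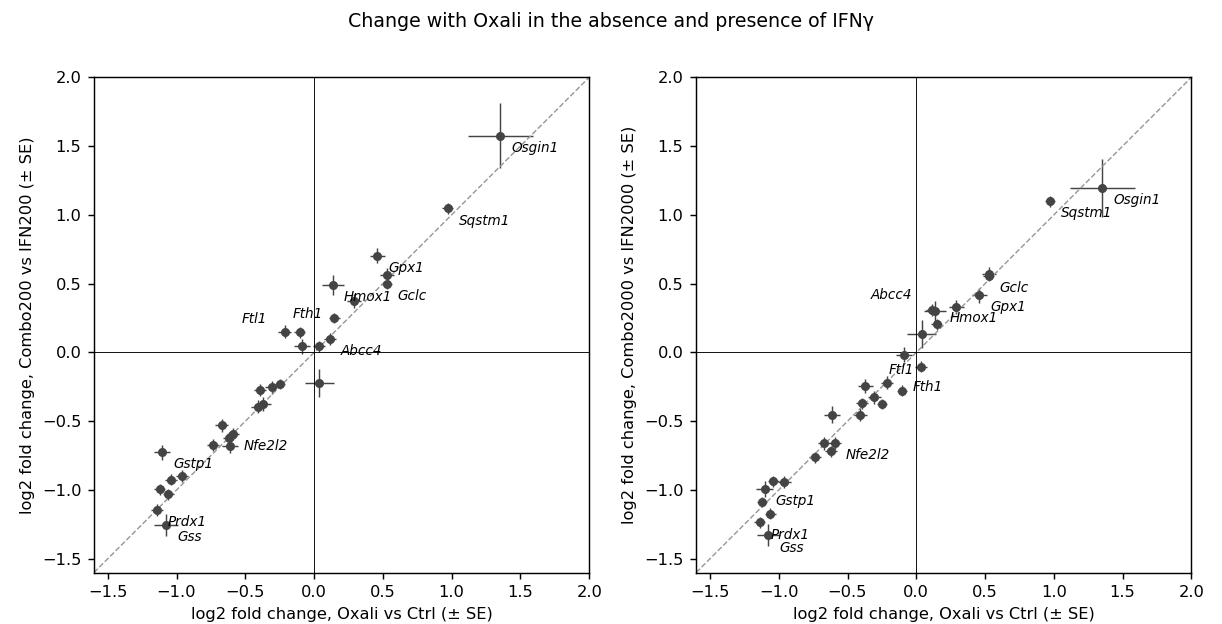
Log2 fold change with Oxali in the absence of IFNγ (horizontal axis, Oxali vs Ctrl) against that in its presence (vertical axis, at 200 pg on the left and 2000 pg on the right); points are the tested members other than Gstt2, bars the SE and the dashed line equality. The 2 axes share no library. Points lie near the line. At 200 pg Gstp1, Ftl1, Hmox1, Fth1 and Gpx1 lie furthest above it, by 0.25 to 0.38, and the distance was called for Gstp1, Ftl1 and Fth1.

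IFNγ alone had small effects on the set. In IFN200 none of the 32 members was called by edgeR (0.114% of all genes were), with 5 at an unadjusted p under 0.05; DESeq2 called 1, Ftl1 (-0.22, adjusted p 0.0215). Ftl1 had 285 and 291 CPM in Ctrl, 263 and 234 in Oxali, 241 and 254 in IFN200, 274 and 276 in Combo200, 285 and 280.2 in IFN2000 and 240.0 and 245 in Combo2000. Both IFN200 libraries were below both Ctrl libraries, and the change was -0.22 (SE 0.05, edgeR adjusted p 0.101). It was called at -0.22 when only these groups were fitted (adjusted p 0.00561). In IFN2000, 8 members were called, 4 higher and 4 lower, where 16.9% of all genes were (8.39% higher, 8.47% lower). Those higher were Fth1 (0.18, SE 0.04, edgeR adjusted p 0.00493), Srxn1 (0.19, SE 0.04), Nfe2l2 (0.13, SE 0.04) and Txnrd1 (0.12, SE 0.04). Those lower were Gstm1 (-0.40, SE 0.06, edgeR adjusted p 9.16e-05), Abcc4 (-0.26, SE 0.04), Cat (-0.18, SE 0.05) and Sqstm1 (-0.17, SE 0.04). None of the 8 changed by more than 0.41 on the log2 scale. Gstm1 fell from 48.0 and 46.2 CPM in Ctrl to 35.3 and 36.0 in IFN2000, and Abcc4 from 77.5 and 77.6 to 62.8 and 67.0, both without overlap. The other calls were less stable than those of Gstm1 and Abcc4. Nfe2l2 was not called by DESeq2 (adjusted p 0.104), without the filter on low counts (0.0956), with only the groups compared (0.106), with the length and GC trend removed (0.0785) or without IFN2000 replicate 2 (0.194), either Ctrl library (0.263 and 0.0641) or either Combo200 library (0.0564 and 0.0568). Txnrd1 was not called with only the groups compared (adjusted p 0.0778) or without IFN2000 replicate 2 (0.109) or either Ctrl library (0.173 and 0.0619), and Cat was not called by DESeq2 (adjusted p 0.09) or without Ctrl replicate 1 (0.253) or IFN2000 replicate 3 (0.18). The count also moved with single libraries. The share of all genes called moved in the same direction without IFN2000 replicate 2, IFN2000 replicate 3 or Ctrl replicate 1, so these shifts are not particular to the members. Without IFN2000 replicate 2, the library with T cell reads, 6 members were called (2 higher, 4 lower), all of them among the 8. Without IFN2000 replicate 3, 15 were called (12 higher, 3 lower), 7 of them among the 8, and without Ctrl replicate 1 only Gstm1 and Abcc4 were. The part of the T cell reads in these calls was not tested further. With the length and GC trend removed 8 were called, 7 of them the same.

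In the combinations most members were called against Ctrl. There were 27 in Combo200 (10 higher, 17 lower, where 68.7% of all genes were called, 35.6% higher and 33.1% lower) and 27 in Combo2000 (8 higher, 19 lower, where the shares were 69.2%, 35.7% and 33.5%). These comparisons share the Ctrl libraries with Oxali against Ctrl. When IFNγ was added to Oxali, 1 member was called at 200 pg (1.83% of all genes) and 2 at 2000 pg, 1 in each direction (4.36%, with 3.37% higher and 0.987% lower). At 200 pg this was Gstp1, higher by 0.26 (SE 0.06, edgeR adjusted p 0.032). It was not called by DESeq2 (adjusted p 0.162), with upper-quartile scaling (0.0609) or without either Oxali library (0.236 and 0.128), Combo200 replicate 2 (0.328) or Ctrl replicate 1 (0.0562). At 2000 pg Hmox1 was higher by 0.31 (SE 0.07, edgeR adjusted p 0.0126) and Gstm1 changed by -0.24 (SE 0.06, edgeR adjusted p 0.0247). Both Combo2000 libraries were above both Oxali libraries in Hmox1 and below both in Gstm1. DESeq2 called neither (adjusted p 0.0903 and 0.117), and without either Combo2000 library neither was called. Without Oxali replicate 2 Hmox1 was not called (0.181), and without Oxali replicate 1 Gstm1 was not (-0.15, adjusted p 0.366). Hmox1 was thus called against Ctrl in the combinations, by 0.34 (SE 0.08) in Combo200 and 0.45 (SE 0.07) in Combo2000, and in neither single treatment. The difference between its effects was not called as an interaction (0.35, edgeR adjusted p 0.207, at 200 pg and 0.16, edgeR adjusted p 0.473, at 2000 pg).

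Whether IFNγ acts differently with Oxali present was asked as an interaction, the log2 change from Oxali to the combination minus that from Ctrl to IFNγ. At 200 pg it was called in 3 members, Ftl1 (0.37, SE 0.07, edgeR adjusted p 0.00752), Gstp1 (0.38, SE 0.08, edgeR adjusted p 0.0312) and Fth1 (0.25, SE 0.06, edgeR adjusted p 0.0424), all positive, where 0.698% of all genes were called and 0.562% were positive calls. Fth1 had 1373 and 1394 CPM in Ctrl, 1352 and 1224 in Oxali, 1229 and 1294 in IFN200, 1413 and 1377 in Combo200, 1573 and 1553 in IFN2000 and 1313 and 1265 in Combo2000. IFN200 lay below Ctrl in both libraries, while Combo200 lay above both Oxali libraries. Without IFN200 replicate 1 or without Ctrl replicate 2 none of the 3 was called, although the values stayed close to those above, at 0.33 and 0.35 for Ftl1, 0.34 and 0.42 for Gstp1 and 0.21 and 0.24 for Fth1. With upper-quartile factors only Ftl1 was called (adjusted p 0.011, against 0.0582 for Gstp1 and 0.0676 for Fth1). DESeq2 and RLE factors each kept 2 of the 3 calls, and the replicate block kept 0. Leaving out any single library of the groups compared, other than IFN200 replicate 2, lost some or all of the calls. At 2000 pg no member was called by edgeR or DESeq2 (2.72% of all genes were called by edgeR, 2.12% positive and 0.600% negative), with 6 at an unadjusted p under 0.05. There the values for Ftl1, Gstp1 and Fth1 were -0.01, 0.11 and -0.17. The difference between the 2 doses was not tested.

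**Figure D4:**
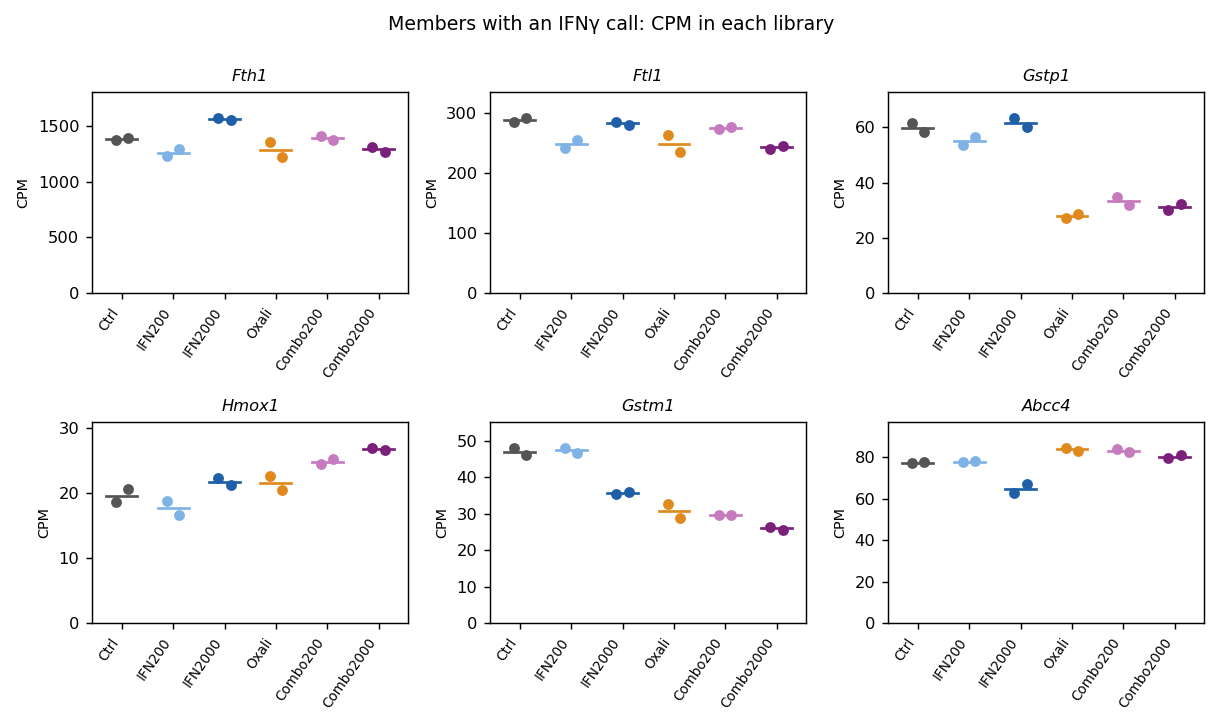
CPM (vertical axis, from 0) in each of the 12 libraries for 6 members with a call in a comparison that involves IFNγ; points are libraries and short lines the means of the 2 libraries of a group. Ftl1 and Fth1 are lower in IFN200 than in Ctrl but not lower in Combo200 than in Oxali, Hmox1 is highest in Combo2000 (26.6 to 27.0 CPM), and Gstm1 and Abcc4 are lower in IFN2000 than in Ctrl.

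A list of 92 other genes of the same pathways gave a wider view, with 78 of them tested. Oxali raised 24 and lowered 39 of these, 63 calls in all, where 67.6% of all genes were called (34.8% higher, 32.8% lower), with a median log2 fold change of -0.17. In IFN200 none was called (4 at an unadjusted p under 0.05), in IFN2000 20 were (11 higher, 9 lower, beside 16.9% of all genes), and in Combo2000 61 (24 higher, 37 lower, beside 69.2%). Of those called with Oxali, 13 changed by at least 1 on the log2 scale, and the 10 with the largest changes are described here. Ggt1, the surface γ-glutamyl transferase that breaks down extracellular glutathione, had 7.67 and 6.43 CPM in Ctrl and 31.4 and 32.9 in Oxali, a 4.57-fold rise (2.19, SE 0.09, edgeR adjusted p 7.16e-14). Its relative Ggt7 also rose (1.32, SE 0.13). Among detoxifying genes Ephx1, microsomal epoxide hydrolase, had 29.0 and 30.5 CPM in Ctrl and 73.3 and 75.7 in Oxali (1.32, SE 0.05), and Aldh3a1, an aldehyde dehydrogenase, and Gstm4, a mu-class transferase that shares sequence with Gstm1, rose by 1.55 (SE 0.22) and 1.36 (SE 0.34) from low levels of 1.28 and 1.37 and 0.778 and 0.557 CPM in Ctrl. Next to Slc7a11, the genes that fell were Pir (-1.74, SE 0.12), Akr1b3 (-1.55, SE 0.09), Txnrd2 (-1.47, SE 0.09) and Rpia (-1.36, SE 0.09). Akr1b3, aldose reductase, which consumes NADPH, had 996 and 872 CPM in Ctrl and 347 and 291 in Oxali. Pir, pirin, had 13.4 and 12.5 CPM in Ctrl and 3.91 and 3.81 in Oxali. Txnrd2, the mitochondrial thioredoxin reductase, had 25.7 and 24.1 CPM in Ctrl and 9.39 and 8.58 in Oxali, and Rpia is the ribose phosphate isomerase of the pentose phosphate pathway. None of the 10 was called in IFN200 or IFN2000 against Ctrl or in either interaction.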

How the data were processed

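RNA-seq counts per gene of 12 libraries were analysed, deposited by the authors as raw read counts without normalization. The reads came from stranded poly(A) libraries. Per the study's methods, they were aligned with STAR to GRCm38 and counted per gene with featureCounts. The submitters' processing notes name STAR 2.7.3a and RSEM 1.3.0. The strand setting of the counting is not given in the sources used here, so reads of overlapping and near-identical genes may be shared. Groups came from the titles, which conflict with the agent label in the 6 single-treatment libraries.

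Counts were tested with edgeR 4.0.16 in R 4.3.3 (quasi-likelihood test, TMM factors, filterByExpr with a minimum count of 10 and total of 15, one mean per group over all 12 libraries). P-values were Benjamini-Hochberg adjusted over 13177 genes for each of 11 comparisons, and genes below 0.05 were called. CPM are counts scaled by TMM-adjusted library size. The SE was obtained from each log2 fold change and its F statistic. With 2 libraries a group, an exact two-sided permutation test cannot go below p = 0.333. Totals were 18749975 to 25931516 counts, and floors of 3 counts (0.111 to 0.167 CPM) cover counting error only. The fit was also run on simulated data with 200 changed genes. The outcome of that run is not given here and is not used as support for the calls.

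The members and lists were chosen with earlier results of these data known. All members are named by role; values per library are given for those called with a log2 fold change of at least 0.8 in size with Oxali or IFN2000, those called in an interaction and 9 further genes, and in part for others. Other pathway genes are named if called with Oxali and changed by at least 1, at most 10 by size. Alternatives were RLE (DESeq2) and upper-quartile factors, no filter, DESeq2 1.42.0, only the groups compared, a replicate block, removal of a spline trend with length and GC content (13043 genes), and leaving out each library, where a lone library was assumed to vary like the others. Some marker genes are not reported here.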

Additional observations from a re-analysis of the deposited data

Results flagged for a closer look

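In 3 members the effect of IFNγ at 200 pg differed between cells with and without Oxali by the interaction test of edgeR: Gstp1 by 0.38 on the log2 scale (adjusted p 0.0312), Ftl1 by 0.37 (adjusted p 0.00752) and Fth1 by 0.25 (adjusted p 0.0424). Without IFN200 replicate 1, the library with heart muscle reads, the values were 0.34 for Gstp1, 0.33 for Ftl1 and 0.21 for Fth1. Without Ctrl replicate 2 they were 0.42, 0.35 and 0.24. In both fits the sizes stayed similar but the calls were lost. Leaving out any other single library of the groups compared, except IFN200 replicate 2, lost at least some of them. DESeq2 and RLE factors each kept 2 of the 3 calls, and the replicate block kept 0.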

How the results depend on the processing

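The count of members called stayed within 1.5 times the reported one under every alternative run for Oxali, Combo200 and Combo2000 against Ctrl and for the combinations against IFNγ alone; leaving out 1 library gave 25 to 27, 25 to 27 and 26 to 27 for the first 3, and 25 to 29 and 28 to 29 for Combo200 against IFN200 and Combo2000 against IFN2000. For the other comparisons the counts moved, and apart from the fewer libraries or genes in a fit the cause was not tested. The number of all genes called also differed between these fits, and the counts of members are read against that. In IFN2000 against Ctrl it was 2221 in the reported fit and 1071 with the replicate block. IFN200 against Ctrl (reported 0) gave 3 without the filter, 1 by DESeq2, 1 with only the groups compared, and 0 to 1 without 1 library. IFN2000 against Ctrl (8) gave 3 with the replicate block and 2 (without Ctrl replicate 1) to 15 (without IFN2000 replicate 3). Combo200 against Oxali (1) gave 0 with upper-quartile factors, DESeq2 or the replicate block, 3 without the filter, and 0 to 2 without 1 library. Combo2000 against Oxali (2) gave 5 without the filter, 0 by DESeq2, 1 with only the groups compared, 1 with the replicate block, and 0 to 5 without 1 library. The interaction at 200 pg (3) gave 1 with upper-quartile factors, 0 with the replicate block, and 0 (without Ctrl replicate 2 or IFN200 replicate 1) to 3; that at 2000 pg (0) gave 1 with upper-quartile factors, 1 without the filter, 2 with the length and GC trend removed, and 0 to 2 without 1 library.

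Directions turned mainly with the length and GC trend removed: Srxn1 to -0.14 in Oxali, -0.0826 in Combo200 and -0.14 in Combo2000 against Ctrl and -0.18 in Combo200 against IFN200; Abcc4 to -0.0208 in Combo200 against Ctrl and -0.0230 against IFN200; Fth1 to -0.12 in Combo200 and Keap1 to -0.28 in Combo2000 against Ctrl; and Keap1 to -0.29 and Ftl1 to -0.0689 in Combo200 against IFN200. Gstt2, at 2 to 18 counts, ran from -0.89 to 2.16 in Combo2000 against IFN2000 as single libraries were left out, the highest without IFN2000 replicate 2. No scaling moved the median of all genes by over 0.1 on the log2 scale. Replicate numbers did not pair the libraries: over 15 pairs of groups the correlation of same-numbered deviations was -0.046 to 0.05. The depth limits Nqo1, Mgst1 and Gstt2.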
